A study of Mus musculus with 4 samples.

Results

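The mitochondrial ribosomal protein genes, Mrps for the small and Mrpl for the large subunit, were read in mouse induced regulatory T (iTreg) cells cultured with or without iron. The genes were chosen by symbol: protein-coding genes whose symbol starts with Mrps or Mrpl and a digit, with pseudogenes left out. Of 47729 gene rows, 77 were members, 48 Mrpl and 29 Mrps. Mrpl57 and Mrpl58 were matched through the older symbols Mrp63 and Ict1.

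Under TGF-β, cultured CD4 T cells can switch on Foxp3, the factor that defines regulatory T cells, and are then called iTreg cells. Cells came from C57BL/6 mouse spleen per the labels, and the study's methods name naive CD4 T cells of spleen and lymph node activated through CD3 and CD28. All libraries shared a differentiation medium with IL-2 at 100 U/mL, TGF-β at 5 ng/mL, and anti-IL4 and anti-IFNγ antibodies at 5 µg/mL each. The FeSO4 group received ferrous sulfate at 50 µM and the Mock group PBS, each for 4 days, with 2 libraries per group. The study's reporting summary gives an age of 6 to 8 weeks for mice of all experiments, except Tfrc cKO mice. Whether animals were pooled is not given in the sources used here. The comparison addresses how iron alters the transcriptome of these cells.

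Mitochondria keep a ribosome of their own, built from rRNAs that the mitochondrial genome encodes and from proteins that nuclear genes encode and the cytosol makes. In mammals it translates only mitochondrial mRNAs, which code for core subunits of the respiratory chain and of ATP synthase. The small subunit reads the mRNA and the large subunit joins amino acids, and some proteins of the small subunit hold iron-sulfur clusters between neighboring chains.

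The gene rows held 35183187 to 40859178 reads per library, and the biological coefficient of variation over all genes was 8.24%. Levels are given as CPM, reads of a gene per 1000000 reads in gene rows, after TMM scaling. "Higher" and "lower" mean an adjusted p under 0.05 in edgeR's quasi-likelihood test with Benjamini-Hochberg adjustment over the 13732 genes tested. No SD is given, since it would rest on 1 difference between libraries. The methods state that the libraries are 2 pairs from 2 independent experiments, but not which libraries form a pair, and p-values measure the spread between these libraries. In bulk RNA, fewer cells of a type and less RNA per cell cannot be told apart.

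The defining genes of CD4 T cells were present in every library, with Cd4 at 631 and 606 CPM in Mock, against 671 and 683 CPM in FeSO4. The 6 CD4 T cell markers summed to 3758 and 3956 CPM in Mock and to 3805 and 4016 CPM in FeSO4. Of these, Cd3d and Trac were higher, and Foxp3 was lower in FeSO4, at 376 and 472 CPM against 587 and 693 CPM in Mock. The call of Trac (adjusted p = 0.0451 by edgeR) was lost without Mock replicate 2 or either FeSO4 replicate (0.110 to 0.234). The NK cell markers Ncr1 and Klrb1c were at 0 in all 4 libraries, the 3 B cell markers summed to 1.84 to 2.81 CPM, and the 3 myeloid markers to 4.26 and 0.191 CPM in Mock, against 0.0292 and 0.0270 CPM in FeSO4. The 2 CD8 T cell markers summed to 9.04 to 11.0 CPM. The 2 red blood cell markers summed to 24.8 and 19.6 CPM in Mock and to 37.5 and 32.5 CPM in FeSO4. Nearly all of this was Hba-a1, which was higher. Hbb-b1 had 12 reads in Mock replicate 1 and 0 in every other library, and was not tested. The part of these differences in the results below was not tested.

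Of the 77 members, 76 passed the filter on low counts and were tested. Mrpl53 had 0 reads in all 4 libraries, which allows up to 0.0717 to 0.0875 CPM. Its exons overlap those of Ccdc142 on the same strand, and the part of this overlap in the 0 was not tested. The tested members had mean levels of 11.8 to 88.9 CPM. Together the members took 0.317 and 0.301% of gene reads in Mock and 0.330 and 0.319% in FeSO4, before TMM scaling.

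In FeSO4, 13 of the 76 tested members were higher (17.1%) and 0 were lower. Over all genes tested, 10.9% were higher and 9.17% were lower, and among the 5564 tested genes within the level range of the members the shares were 11.3% and 9.6%. The changes were small. Log2 fold changes of members ran from -0.16 to 0.43 with a median of 0.13, against a median of -0.00052 over all genes. The log2 fold change was above 0 for 68 members and below 0 for 8. Without adjustment, 26 members (34.2%) had p under 0.05, all with the higher level in FeSO4, against 17.1% of all genes with the higher and 15.2% with the lower level in FeSO4. DESeq2 called 7 members higher (9.21%) and 0 lower, against 10.2% and 7.66% of the 12477 genes to which it gave an adjusted p, so the excess of members higher was not seen with that tool. No member passed the study's threshold, which asks for an unadjusted p under 0.05 and a log2 change of 0.5 or more in either direction, against 4.67% of all genes higher and 5.73% lower. Members share libraries and are not replicates of one another.

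In 42 of 76 members (55.3%), both FeSO4 libraries lay above both Mock libraries, and in 1, Mrpl34, both lay below. Over all genes tested, the groups separated upward in 30.1% and downward in 29.4%. With library size only, 31 members separated upward and 5 downward (40.8% and 6.58%), against 23% and 37.4% of all genes.

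**Figure D1:**
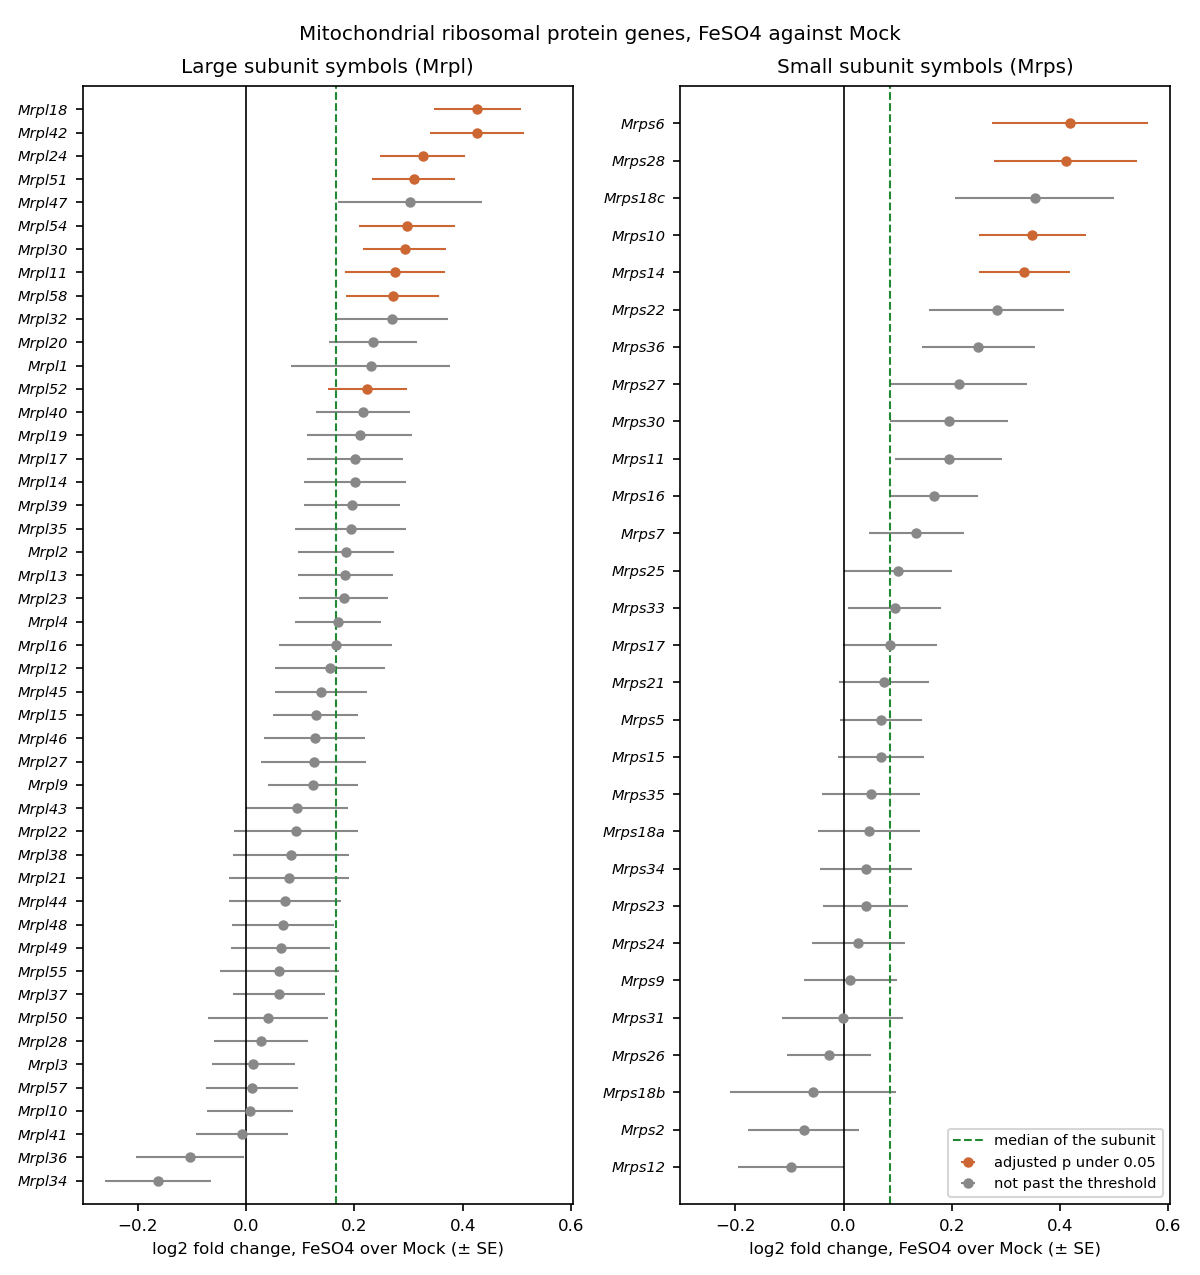
Log2 fold change of each tested gene (x axis, FeSO4 over Mock, with its SE as a bar) for the 47 Mrpl genes on the left and the 29 Mrps genes on the right, in order of the change. The 13 genes past the threshold are orange, and the dashed lines are the subunit medians of 0.17 and 0.09.

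Of the large subunit, 9 of 47 tested genes were higher (19.1%, against 10.9% over all genes) with a median log2 fold change of 0.17. Mrpl18, the counterpart of the bacterial protein that binds 5S rRNA, had the smallest p of all members. It stood at 47.4 and 48.6 CPM in Mock and at 67.2 and 61.8 CPM in FeSO4. Both FeSO4 libraries lay above both Mock libraries, and the log2 fold change with its SE was 0.43 ± 0.08 (adjusted p = 0.00135 by edgeR's quasi-likelihood test). Mrpl18 overlaps Tcp1 on the opposite strand, and the strand setting of the counting was not stated, so reads of the pair may not be fully told apart. Tcp1, a chaperonin subunit, was itself higher, with a log2 fold change of 0.29 (adjusted p = 0.00466), a call lost without FeSO4 replicate 1 (0.0737).

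Mrpl42 encodes a protein without a bacterial counterpart. Its level was 49.4 and 42.5 CPM in Mock, against 63.0 and 60.6 CPM in FeSO4. The groups did not overlap, and the log2 fold change was 0.43 ± 0.09 (adjusted p = 0.00246). The call of Mrpl42 was lost when every gene of at least 1 count was tested. Mrpl24, which has a bacterial counterpart, stood at 49.6 and 50.7 CPM in Mock and at 61.3 and 64.4 CPM in FeSO4, again without overlap. Its log2 fold change was 0.33 ± 0.08 (adjusted p = 0.00752), and its exons overlap Rrnad1 on the opposite strand. Its call was lost without FeSO4 replicate 2 (adjusted p = 0.0677).

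Mrpl51, Mrpl52 and Mrpl54 code for proteins found in mitochondrial but not bacterial ribosomes. Mrpl51 stood at 58.2 and 59.7 CPM in Mock and at 75.3 and 70.8 CPM in FeSO4, so the log2 fold change was 0.31 ± 0.08 (adjusted p = 0.00863). Mrpl54 stood at 32.5 and 31.4 CPM in Mock against 39.5 and 39.1 CPM in FeSO4, with a log2 fold change of 0.30 ± 0.09 (adjusted p = 0.0266). Mrpl52 stood at 80.8 and 75.4 CPM in Mock and at 89.3 and 93.1 CPM in FeSO4. It had the smallest change of the called members, 0.22 ± 0.07 (adjusted p = 0.0400). In all 3 genes the groups were apart. The call of Mrpl51 was lost without FeSO4 replicate 1 (adjusted p = 0.0948), that of Mrpl52 without Mock replicate 2 or either FeSO4 replicate (0.0936 to 0.213) and with DESeq2 (0.0501). The call of Mrpl54 was lost with any 1 library left out (0.0551 to 0.125) and with DESeq2 (0.0529).

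Mrpl30 and Mrpl11 encode proteins with bacterial counterparts, and Mrpl11 was named after its values were seen. Mrpl30 was measured at 59.1 and 55.3 CPM in Mock and at 71.0 and 69.1 CPM in FeSO4 (log2 fold change 0.29 ± 0.08, adjusted p = 0.0131). Mrpl11 was measured at 30.9 and 29.9 CPM in Mock and at 38.2 and 35.4 CPM in FeSO4 (log2 fold change 0.27 ± 0.09, adjusted p = 0.0455). Neither gene overlapped between groups. Mrpl58, also known as Ict1, encodes a peptidyl-tRNA hydrolase that became part of the large subunit and frees stalled ribosomes. It was at 37.3 and 36.3 CPM in Mock and at 45.6 and 43.3 CPM in FeSO4 (log2 fold change 0.27 ± 0.09, adjusted p = 0.0356). The FeSO4 libraries were again the higher ones. The calls of Mrpl11 and Mrpl58 were lost with any 1 library left out (adjusted p = 0.0708 to 0.287 and 0.0733 to 0.221) and with DESeq2. That of Mrpl30 was lost without Mock replicate 2 (0.0737) and without FeSO4 replicate 1 (0.0868).

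Not all large subunit genes were called. Mrpl20, at 88.1 and 75.2 CPM in Mock, against 99.2 and 93.0 CPM in FeSO4, lay just outside the threshold (log2 fold change 0.23 ± 0.08, adjusted p = 0.0521). Mrpl34 had the lowest value of all members, with 35.0 and 33.0 CPM in Mock, against 28.5 and 32.1 CPM in FeSO4 (log2 fold change -0.16 ± 0.10, adjusted p = 0.268). Mrpl36 stood at 45.5 and 48.0 CPM in Mock and at 48.4 and 38.7 CPM in FeSO4 (log2 fold change -0.10 ± 0.10, adjusted p = 0.509). Its FeSO4 libraries lay on either side of the Mock pair, and without FeSO4 replicate 2 the value was 0.054.

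Of the small subunit, 4 of 29 genes were higher (13.8%, near the 10.9% over all genes and the 11.3% in the members' level range) with a median log2 fold change of 0.09. Mrps14 had the smallest p among them. It stood at 40.3 and 37.9 CPM in Mock and at 49.4 and 49.2 CPM in FeSO4, so the log2 fold change was 0.33 ± 0.08 (adjusted p = 0.0101). Mrps10 stood at 26.3 and 23.9 CPM in Mock and at 32.5 and 31.6 CPM in FeSO4, so the log2 fold change was 0.35 ± 0.10 (adjusted p = 0.0200). Both genes code for proteins with bacterial counterparts, and in both the FeSO4 libraries differed less from each other than the Mock libraries did. The call of Mrps14 was lost without Mock replicate 2 (adjusted p = 0.0593) and without FeSO4 replicate 1 (0.0505). That of Mrps10 was lost without Mock replicate 2 or either FeSO4 replicate (0.0548 to 0.121).

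Mrps28 and Mrps6 had lower counts and wider errors. Mrps28 was at 14.1 and 11.7 CPM in Mock and at 17.1 CPM in both FeSO4 libraries (log2 fold change 0.41 ± 0.13, adjusted p = 0.0380). Mrps6 was at 11.5 and 9.80 CPM in Mock and at 15.0 and 13.4 CPM in FeSO4 (log2 fold change 0.42 ± 0.14, adjusted p = 0.0487). The groups did not overlap in either gene, but both calls were lost without Mock replicate 2 or either FeSO4 replicate (adjusted p = 0.0614 to 0.264 for Mrps6 and 0.112 to 0.249 for Mrps28) and with DESeq2 (0.122 and 0.0942). Mrps6 shares exon sequence with Slc5a3 on the same strand, so its reads depend on how such overlaps were counted.

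Mrps6, Mrps16, Mrps18c and Mrps25 code for proteins that hold iron-sulfur clusters in the small subunit, Mrps6 with Mrps18c and Mrps16 with Mrps25. Of these 4 genes, 1, Mrps6, was higher, a count too small to set against the 10.9% over all genes. Mrps18c stood at 9.88 and 10.8 CPM in Mock and at 14.3 and 12.2 CPM in FeSO4 (log2 fold change 0.35 ± 0.15, adjusted p = 0.103). Its groups did not overlap, at a level among the lowest of the members. Mrps16 stood at 54.3 and 49.5 CPM in Mock and at 58.8 and 57.7 CPM in FeSO4 (log2 fold change 0.17 ± 0.08, adjusted p = 0.167). Mrps25 stood at 26.0 and 25.4 CPM in Mock and at 28.4 and 26.7 CPM in FeSO4 (log2 fold change 0.10 ± 0.10, adjusted p = 0.528). All 4 genes had both FeSO4 libraries above both Mock libraries, as did 30.1% of all genes tested. With library size only this held for 3 of them, and Mrps25 overlapped, since its lower FeSO4 library (26.2 CPM) then lay under its higher Mock library (26.6 CPM).

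Mrps18c has paralogs, Mrps18a and Mrps18b, whose proteins take other places in the ribosome. Mrps18a stood at 32.9 and 31.2 CPM in Mock and at 31.7 and 34.4 CPM in FeSO4 (log2 fold change 0.05 ± 0.09, adjusted p = 0.777). Mrps18b stood at 11.4 and 13.5 CPM in Mock and at 13.4 and 10.6 CPM in FeSO4 (log2 fold change -0.06 ± 0.15, adjusted p = 0.844). Both overlapped between the groups, and both changed sign when 1 library was left out. The differences among the 3 paralogs were not tested.

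Mrps36 carries a ribosomal symbol, but its protein is a subunit of the 2-oxoglutarate dehydrogenase complex of the citric acid cycle. It stood at 20.8 and 21.5 CPM in Mock and at 24.7 and 25.6 CPM in FeSO4 (log2 fold change 0.25 ± 0.10, adjusted p = 0.107). Mrps22, a protein of the small subunit without a bacterial counterpart, stood at 23.2 and 17.7 CPM in Mock and at 25.4 and 24.3 CPM in FeSO4 (log2 fold change 0.28 ± 0.12, adjusted p = 0.125). In Mrps22 the Mock libraries differed more from each other than Mock replicate 1 did from either FeSO4 library. Mrps12, which codes for the counterpart of a bacterial protein of the decoding center, had 33.6 and 30.2 CPM in Mock, against 30.8 and 28.9 CPM in FeSO4 (log2 fold change -0.10 ± 0.10, adjusted p = 0.537).

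**Figure D2:**
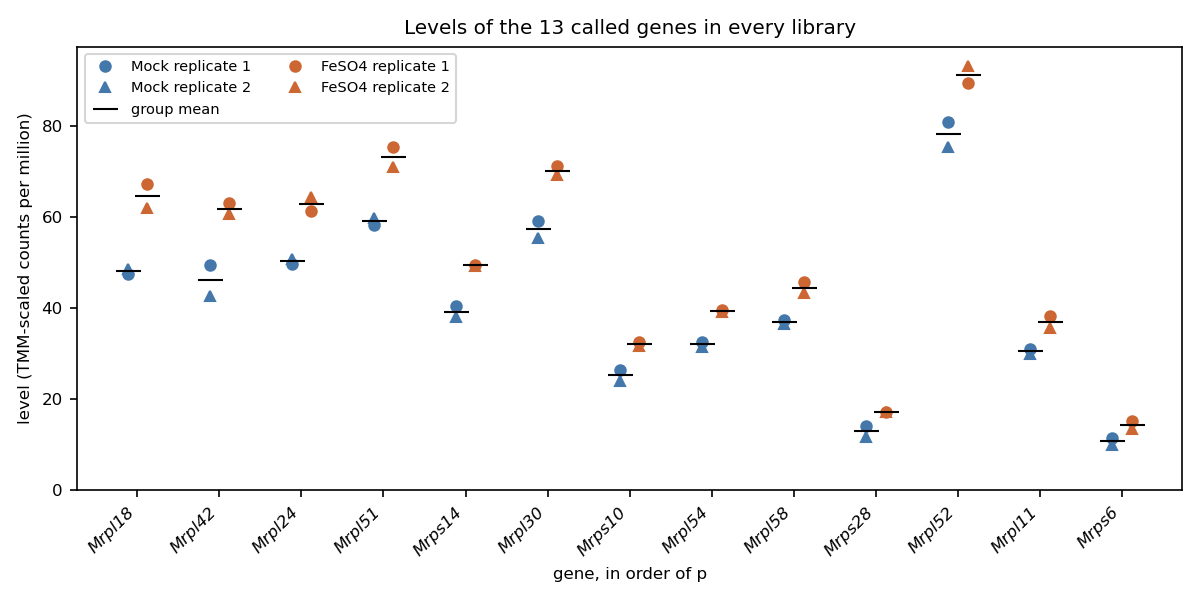
Level of the 13 called genes (y axis, CPM) in each Mock library (blue) and FeSO4 library (orange), with group means as black bars. For every gene shown both FeSO4 points lie above both Mock points, from Mrps6 at 9.80 to 15.0 CPM up to Mrpl52 at 75.4 to 93.1 CPM.

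The subunits were also compared by their summed levels. The Mrps genes summed to 1114 and 1053 CPM in Mock and to 1184 and 1132 CPM in FeSO4, a mean 6.92% above Mock. The Mrpl genes summed to 1990 and 1884 CPM in Mock and to 2208 and 2124 CPM in FeSO4, a mean 11.8% above Mock. In both sums the lowest FeSO4 library was above the highest Mock library. This separation and the size of the rise depend on the scaling. With library size only, the Mrps genes summed to 1138 and 1078 CPM in Mock and to 1154 and 1111 CPM in FeSO4, a mean 2.20% above Mock with FeSO4 replicate 2 below Mock replicate 1. The Mrpl genes then summed to 2033 and 1929 CPM in Mock and to 2151 and 2084 CPM in FeSO4, a mean 6.90% above Mock and still without overlap. The ratio of the small to the large sum was 0.560 and 0.559 in Mock and 0.536 and 0.533 in FeSO4. The ratio does not depend on library scaling, and its groups did not overlap. No test was run on it. For a single value per library, an exact permutation test cannot go below a two-sided p of 0.333 with 2 libraries against 2.

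By structure, Mrps30 and Mrps18a belong to the large subunit and Mrps36 to neither. Sorted this way, 4 of 26 small (15.4%) and 9 of 49 large (18.4%) subunit genes tested were higher, against 10.9% over all genes, with medians of 0.08 and 0.17. The ratio of sums was then 0.508 and 0.506 in Mock and 0.488 and 0.480 in FeSO4.

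**Figure D3:**
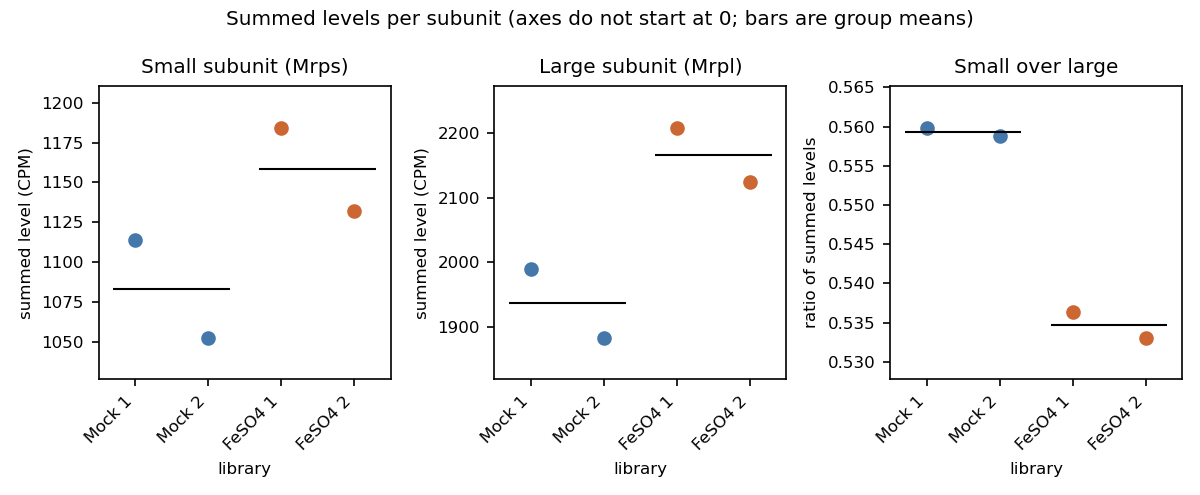
Summed level of the Mrps genes, of the Mrpl genes (y axes, CPM) and their ratio in each library, with group means as bars and y axes that do not start at 0. After TMM scaling, as drawn, the FeSO4 libraries lie above the Mock libraries in both sums and, under either scaling, below them in the ratio, at 0.536 and 0.533 against 0.560 and 0.559. With library size only, the Mrps sums overlap.

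Per kilobase of exon, levels differed widely between members. Mrpl52 had the highest level, at 196 and 183 CPM per kb in Mock and 217 and 226 in FeSO4. It was followed by Mrps16, at 95.9 and 87.5 in Mock and 104 and 102 in FeSO4, and by Mrpl20, at 81.3 and 69.4 in Mock and 91.5 and 85.8 in FeSO4. Mrpl42 was close to Mrpl20, at 74.2 and 63.9 in Mock and 94.5 and 91.0 in FeSO4, below it in both Mock and above it in both FeSO4 libraries. The lowest detected members were Mrpl1 at 2.63 to 3.75 CPM per kb, Mrps10 at 2.96 to 4.02 and Mrps25 at 3.86 to 4.32, with ranges that overlap from one to the next. Mrpl47, at 3.43 and 3.87 in Mock and 4.69 and 4.33 in FeSO4, could not be told apart from Mrps25 and lay below it in Mock replicate 1. Lengths are of all annotated exons of a gene joined, so a member with a long annotated exon is placed low.

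The members lie on 17 chromosomes and many face another gene. In the GENCODE M1 annotation (NCBIM37), 29 of the 77 members (37.7%) had the start of another protein-coding gene on the opposite strand within 1000 bases of their own start, against 11.3% of all 20862 protein-coding genes. Mrpl46 and Mrps11 face each other and stood at log2 fold changes of 0.13 and 0.19, neither past the threshold. Of the 28 partners tested, 4 were higher and 1 was lower, with 10.9% higher and 9.17% lower over all genes tested. The higher ones were Tcp1 beside Mrpl18, Psma2 beside Mrpl32, Fau beside Mrpl49 and Mtbp beside Mrpl13, and the lower one was Eme2 beside Mrps34. All 5 calls were lost without FeSO4 replicate 1 (adjusted p = 0.0597 to 0.138). Those of Fau and Psma2 were also lost without Mock replicate 2 (0.0730 and 0.0527), those of Fau and Eme2 without FeSO4 replicate 2 (0.109 and 0.0838), and that of Eme2 without Mock replicate 1 (0.146). Only in the pair of Mrpl18 and Tcp1 were both genes called. Of the 29 members with a partner, 3 were higher (10.3%, near the 10.9% over all genes), with a median log2 fold change of 0.09. Of the 47 tested members without one, 10 were higher (21.3%), with a median of 0.17. The difference was not tested.

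RefSeq promoter windows (GRCm38.p6, 250 bases before to 50 after a start) were matched by symbol for 68 members, which have 74 windows. They were searched on both strands for 4 motifs of factors known for housekeeping and growth genes, each counted on its own whether or not matches overlapped. CCGGAAG, the core that GABP of the ETS family binds, was found in 25 of the 74 windows (33.8%), against 11.6% of 21262 windows of all protein-coding genes. AAGATGGCG, the YY1 motif, was in 10.8% against 1.83%, and GCATGCGC, the NRF1 motif, in 9.46% against 3.51%. The E-box CACGTG, which MYC binds, was in 9.46% against 7.84%. Of the 7 member windows with the E-box, 3 are overlapping windows of Mrpl2. Counted by gene, the E-box was held by 5 of the 68 members (7.35%) against 8.91% of all genes, so members had no excess, while the GABP core was held by 36.8% against 12.9%, the YY1 motif by 11.8% against 2.14% and the NRF1 motif by 10.3% against 3.93%. The member windows had a median GC content of 58.8%, against 56.3% over all windows.

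The median change was smaller in members with the GABP motif than without it, a difference that was not tested. The 24 tested members with CCGGAAG had a median log2 fold change of 0.09 and 4 were higher (16.7%), while the 43 without it had a median of 0.15 and 7 were higher (16.3%), against 10.9% over all genes. For YY1 the medians were 0.13 with and 0.13 without, and for NRF1 0.12 and 0.13. For the E-box, held by 5 tested members, they were 0.18 and 0.13. With the YY1 motif 1 of 8 tested members was higher (12.5%), against 16.9% without it. The NRF1 motif and the E-box were held by 0 called members, against 18.3% and 17.7% higher without them. These differences were not tested. The 4 called members with the GABP motif are shown to place it, each from 250 bases before the RefSeq start to 30 after it, 5′ to 3′ on the strand of the gene. Capitals mark CCGGAAG or its reverse complement CTTCCGG.
Mrpl18: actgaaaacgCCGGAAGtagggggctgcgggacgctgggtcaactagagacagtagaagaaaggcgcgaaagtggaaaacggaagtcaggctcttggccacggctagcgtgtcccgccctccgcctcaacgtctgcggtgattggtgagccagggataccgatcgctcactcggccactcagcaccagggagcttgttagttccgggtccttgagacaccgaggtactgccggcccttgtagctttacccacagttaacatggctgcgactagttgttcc
Mrpl51: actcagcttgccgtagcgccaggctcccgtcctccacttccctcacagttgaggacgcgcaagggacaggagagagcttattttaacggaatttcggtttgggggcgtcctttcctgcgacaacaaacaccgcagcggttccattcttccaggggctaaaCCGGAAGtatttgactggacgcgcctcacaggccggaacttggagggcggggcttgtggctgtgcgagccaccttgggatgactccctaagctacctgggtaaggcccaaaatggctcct
Mrpl58: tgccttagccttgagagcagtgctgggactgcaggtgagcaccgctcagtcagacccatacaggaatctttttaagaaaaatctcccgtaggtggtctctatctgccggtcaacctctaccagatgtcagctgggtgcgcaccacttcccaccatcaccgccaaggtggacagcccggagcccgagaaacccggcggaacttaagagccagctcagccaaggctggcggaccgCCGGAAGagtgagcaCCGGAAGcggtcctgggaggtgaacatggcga
Mrpl52: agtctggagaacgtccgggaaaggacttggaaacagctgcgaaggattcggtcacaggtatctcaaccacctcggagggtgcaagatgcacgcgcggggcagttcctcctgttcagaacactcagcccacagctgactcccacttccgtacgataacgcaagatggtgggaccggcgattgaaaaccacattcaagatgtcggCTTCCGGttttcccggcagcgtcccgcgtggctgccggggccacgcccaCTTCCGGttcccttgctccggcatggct
The windows lie at chr17:12916062-12916341 on the minus strand for Mrpl18, and on the plus strand at chr6:125191950-125192229 for Mrpl51, chr11:115403502-115403781 for Mrpl58 and chr14:54426659-54426938 for Mrpl52 (GRCm38.p6). Mrpl18 and Mrpl51 hold the motif once and upstream of the start, and Mrpl52 and Mrpl58 hold it at 2 places each, near the start. Whether any factor binds there was not measured.

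Other parts of the mitochondrial translation system were read as lists of genes. Of 5 structural proteins of the ribosome with other symbols (Dap3, Ptcd3, Aurkaip1, Chchd1 and Gadd45gip1), 0 were higher and 0 lower by edgeR's test. Over all genes tested, 10.9% were higher and 9.17% lower. None of the 5 had an unadjusted p under 0.05, and their median log2 fold change was 0.16. Ptcd3 stood at 36.4 and 38.4 CPM in Mock and at 46.6 and 38.9 CPM in FeSO4 (adjusted p = 0.191). Chchd1 and Aurkaip1 had log2 fold changes of 0.18 ± 0.09 and 0.16 ± 0.08 (adjusted p = 0.188 and 0.179).

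Among the genes that assemble and serve the ribosome, few were called and none of those was higher. Over all genes tested, 10.9% were higher and 9.17% lower by edgeR, and the difference was not tested. Of 25 assembly factors, 0 were higher and 1 was lower by edgeR and by DESeq2, with a median of 0.01, and 3 had an unadjusted p under 0.05 (1 with the higher level in FeSO4). Dhx30, an RNA helicase of mitochondrial RNA granules, was the lower one, at 116 and 120 CPM in Mock, against 103 and 101 CPM in FeSO4 (log2 fold change -0.22 ± 0.07, adjusted p = 0.0319). The GTPases Noa1 and Mtg1 had log2 fold changes of -0.21 ± 0.08 and 0.31 ± 0.14 (adjusted p = 0.100 and 0.145). Of 18 translation factors, 0 were higher and 1 was lower, with a median of 0.01, and 2 had an unadjusted p under 0.05, both with the lower level in FeSO4. Guf1, a back-translocating elongation factor, was at 22.3 and 21.6 CPM in Mock and at 18.0 and 17.0 CPM in FeSO4 (log2 fold change -0.33 ± 0.11, adjusted p = 0.0487). DESeq2 gave Guf1 an adjusted p of 0.118, and its call was lost with any 1 library left out (adjusted p = 0.111 to 0.246). The call of Dhx30 was lost without Mock replicate 2 and without either FeSO4 replicate (adjusted p = 0.124 to 0.182).

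Of 8 genes that copy and transcribe mitochondrial DNA, 0 were higher and 1 was lower (12.5%) by both tools. Over all genes tested, 10.9% were higher and 9.17% lower by edgeR. The median of the 8 genes was -0.08, and 1 had an unadjusted p under 0.05. Polrmt, the mitochondrial RNA polymerase, was at 56.1 and 49.2 CPM in Mock and at 43.6 and 39.3 CPM in FeSO4 (log2 fold change -0.35 ± 0.09, adjusted p = 0.0135). Its call was lost without Mock replicate 1 (adjusted p = 0.0994) and without FeSO4 replicate 2 (adjusted p = 0.131). Polg, the mitochondrial DNA polymerase, and Ssbp1, which coats single-stranded DNA, had log2 fold changes of -0.13 ± 0.06 and 0.17 ± 0.09 (adjusted p = 0.167 and 0.195). Of 8 tested nuclear regulators of mitochondrial genes, 0 were called in either direction by edgeR's test, with a median of -0.05, and 1, Yy1, had an unadjusted p under 0.05. Yy1 had a log2 fold change of 0.17 ± 0.07 (adjusted p = 0.0998) and Ppargc1b, a coactivator, -0.36 ± 0.21 (adjusted p = 0.241).

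The rRNAs of the mitochondrial ribosome had larger log2 fold changes than any tested member. The study's RNA sequencing methods name mRNA libraries, and how far their rRNA reads follow the amount of rRNA was not tested. mt-Rnr1, the RNA of the small subunit, stood at 136 and 152 CPM in Mock and at 211 and 231 CPM in FeSO4. mt-Rnr2, the RNA of the large subunit, stood at 466 and 488 CPM in Mock and at 682 and 734 CPM in FeSO4. Both groups were far apart, with log2 fold changes of 0.61 ± 0.07 (adjusted p = 1.64e-05) and 0.57 ± 0.06 (adjusted p = 7.29e-06). Reads with more than 1 alignment, which were not counted, made up 4.42 and 4.27% of a library in Mock and 4.60 and 4.62% in FeSO4, and their part in this difference was not tested.

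Of the 13 mRNAs that the mitochondrial ribosome translates, 2 were higher (15.4%) and 0 lower, with a median log2 fold change of 0.14. Over all genes tested, 10.9% were higher and 9.17% lower, and the difference was not tested. mt-Nd1 was at 1549 CPM in both Mock libraries and at 1962 and 2121 CPM in FeSO4 (log2 fold change 0.40 ± 0.06, adjusted p = 0.000198). mt-Nd2 was at 1062 and 1071 CPM in Mock and at 1256 and 1414 CPM in FeSO4 (log2 fold change 0.32 ± 0.06, adjusted p = 0.00193). Both code for subunits of respiratory complex I. The most abundant by counted reads, mt-Co1, was at 8746 and 8170 CPM in Mock and at 8577 and 9237 CPM in FeSO4. mt-Co2, mt-Co3, mt-Atp6, mt-Atp8, mt-Nd3 and mt-Nd4l were at 17.5 CPM or less in every library, far under mt-Co1 by counted reads. Reads with several alignments were not counted, and their part in these low levels was not tested. The low levels are therefore not read as amounts of mRNA, although these genes are among the 13 counted above.

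The cytosolic ribosomal proteins and the nuclear subunits of the respiratory chain and ATP synthase give the setting for the members. Of 79 cytosolic ribosomal protein genes tested, 66 were higher (83.5%) and 0 lower, with a median log2 fold change of 0.28. These counts are by edgeR's test with TMM and all libraries, and those of the alternative fits are not given here. Over all genes tested, 10.9% were higher and 9.17% lower. Rpl11 was at 853 and 837 CPM in Mock and at 1109 and 1126 CPM in FeSO4. Of 77 nuclear respiratory chain and ATP synthase genes tested, 22 were higher (28.6%, against 10.9% over all genes) and 0 lower, with a median of 0.15. This count was 3 without FeSO4 replicate 1, 7 without Mock replicate 2, 11 without FeSO4 replicate 2, 22 without Mock replicate 1, 6 with library size only, 20 with DESeq2 and 32 with the replicate block. Atp5md was at 58.9 and 57.3 CPM in Mock and at 82.2 and 74.9 CPM in FeSO4. The members' share of 17.1% lay below both families, and their median of 0.13 close to the respiratory genes. In the same settings the members' counts were 3, 4, 5, 14, 6, 7 and 14, equal to those of the respiratory genes without FeSO4 replicate 1 and with library size only, and smaller in the others. With library size only, 7.79% of the respiratory genes were higher, against 7.14% of all genes, and with DESeq2 26% against 10.2%. Without FeSO4 replicate 1 the share of respiratory genes lay below that of all genes, and above it without any other library. The differences between these families were not tested.

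**Figure D4:**
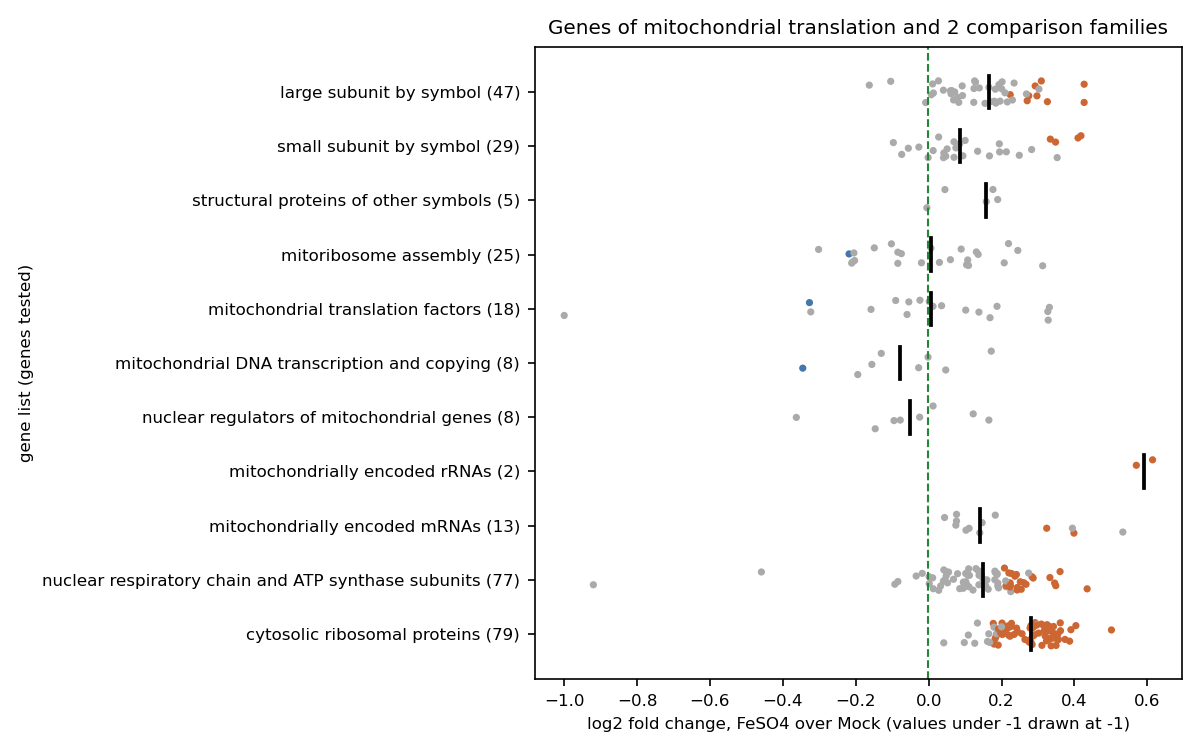
Log2 fold change of every tested gene (points) in each list, with the list median as a black bar and the median of all genes as a dashed line. Orange points were higher and blue points lower in FeSO4. The medians run from -0.08 for mitochondrial DNA transcription and copying to 0.59 for the mitochondrial rRNAs, and values under -1 are drawn at -1.

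How firmly the 13 calls stand depended on the library and the test. All 13 kept a log2 fold change above 0 in every alternative run, and Mrpl18 stayed past an adjusted p of 0.05 in each of them, although its change is under the study's limit of 0.5. Of the 13, 7 were called by DESeq2, 4 without Mock replicate 2, 3 without FeSO4 replicate 1, 5 without FeSO4 replicate 2 and 10 without Mock replicate 1. Mrpl42 and Mrpl18 were called in each of these, and Mrpl24 in all but the fit without FeSO4 replicate 2. The share of members higher was below that of all genes without Mock replicate 2 (5.26% against 7.20%), without FeSO4 replicate 1 (3.95% against 6.10%) and without FeSO4 replicate 2 (6.58% against 7.16%), and above it without Mock replicate 1 (18.4% against 8.40%). With library size in place of TMM, 6 of the 13 were called, 7.89% of members against 7.14% of all genes. In that fit 54 of 76 members were above 0, with a median of 0.07 against -0.07 for all genes. With every gene of at least 1 count tested, 1 of the 13 was called, Mrpl18, and the call of Mrpl42 was lost. That was 1.32% of members against 2.36% of all genes.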

How the data were processed

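RNA was sequenced from 2 Mock and 2 FeSO4 libraries of iTreg cells, grouped by the labels. The authors deposited raw read counts per Ensembl gene, not normalized, 1 column per library. The submitters' processing notes name Trim Galore 0.6.7, STAR 2.7.9a, featureCounts and the build mm10, while the methods name STAR and mm9. The last 5 rows have names that htseq-count gives, so the counter, its strand setting and the annotation are not settled. Those rows held 15.9 to 17.3% of reads and were left out. Symbols were matched by Ensembl ID (32799 of 47729), and positions relative to neighbors came from GENCODE M1 (NCBIM37), which lacks 14930 of the IDs. Mrpl33 was not analysed here. The 4 pseudogene rows left out held at most 15 reads per library.

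The test was edgeR 4.0.16 under R 4.3.3: filterByExpr by group (13732 genes, 99.95% of gene reads), TMM, and the bias-adjusted quasi-likelihood F test, two-sided, with Benjamini-Hochberg adjustment over all genes tested. SEs are the absolute log2 fold change over the square root of F. Libraries of a group were no duplicates (chi-square per degree of freedom 11.3 and 9.02). A count of 0 allows 3 counts, and limits cover counting error only. Lists were described by counts and medians, without a test. Alternatives were DESeq2 1.42.0, limma-voom (limma 3.58.1), other scalings and filters, a replicate block, leaving out each library and the study's threshold. The legacy quasi-likelihood test, library size only for sums and group overlap, and motif shares by gene were added after the data were seen. The fit was also run on simulated data. The changes set there were larger than that of any tested member, so that run does not address calls of changes of the members' size.

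The text names the 8 genes of smallest p per subunit, the 3 highest and 3 lowest log2 fold changes, the iron-sulfur genes, the Mrps18 paralogs, the extremes per kilobase, the untested member, and up to 3 genes of smallest p in other lists. Members and lists were chosen with earlier results of these data known. Other genes named are partners or landmarks chosen after their values were seen.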

Additional observations from a re-analysis of the deposited data

Results flagged for a closer look

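Reads that were assigned to no gene were outside the comparison and were looked at by kind. Reads set aside for low alignment quality made up 0.802 and 0.929% of a library in Mock and 0.978 and 0.988% in FeSO4, a mean 0.118 percentage points above Mock. Reads with more than 1 alignment made up 4.42 and 4.27% in Mock and 4.60 and 4.62% in FeSO4, a mean 0.264 percentage points above Mock. Both kinds were higher in each FeSO4 library than in either Mock library. Neither was tested, and their part in the levels of members was not tested.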

How the results depend on the processing

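With 2 libraries per group and changes mostly under 0.5 on the log2 scale, which members pass an adjusted p of 0.05 depends on the setting, while the medians kept their sign. The median log2 fold change of members was 0.07 to 0.17 over all alternatives (0.02 to 0.14 for the small and 0.10 to 0.19 for the large subunit).

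Members higher numbered 7 with DESeq2, 6 with library size only, 1 with every gene of at least 1 count and 0 at the study's threshold, against 13. For the small subunit these were 2, 1, 0 and 0, against 4, and for the large subunit 5, 5, 1 and 0, against 9. Leaving out 1 library gave 3 to 14 members higher, 0 to 5 small and 3 to 9 large. The members' share higher was near that of all genes with DESeq2 (9.21% against 10.2%) and library size only (7.89% against 7.14%), and below it with every gene of at least 1 count (1.32% against 2.36%) and in 3 of the 4 fits without 1 library. Against 1491 for all genes higher and 1259 for all genes lower, library size only gave 980 higher and 1810 lower, every gene with a count 524 and 304, and the study's threshold 641 and 787. Leaving out 1 library gave 893 to 1199 for all genes higher and 710 to 1158 for all genes lower. Without 1 library the log2 fold change of Mrpl36 was -0.27 to 0.054 (highest without FeSO4 replicate 2), of Mrps18a -0.011 to 0.11 (lowest without FeSO4 replicate 2, and -0.018 with library size only) and of Mrps18b -0.22 to 0.11 (above 0 without Mock replicate 2, 0.077, and without FeSO4 replicate 2). With library size only, the summed level of the Mrps genes was 2.2% and that of the Mrpl genes 6.9% above Mock, a setting added after seeing the data. The cause was not tested.

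The labels number the libraries, and the methods speak of 2 pairs from 2 independent experiments without saying that a number marks the experiment. Deviations of same-numbered libraries correlated at r = 0.029 over all genes, 0.22 over the 8522 genes of at least 10 CPM and -0.062 over the 76 members, across genes, which are not independent replicates. With the replicate block, 14 members were higher (18.4%), among them all 13, against 1847 of all genes higher (13.5%) and 1580 lower (11.5%).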
